A study of Mus musculus with 12 samples.

Results

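The 8 mRNAs of MHC class I antigen presentation described here were H2-K1, H2-D1, B2m, Tap1, Tap2, Tapbp, Irf1 and Nlrc5. They were taken by gene symbol from a table of 55376 genes, and all 8 were among the 12224 genes with enough counts to be tested. The table came from RNA-Seq of 12 libraries prepared from 4T1, a mammary carcinoma line that arose in a BALB/c mouse. Mock cells were stably transfected with the empty vector, METTL7A1 cells with the full-length Mettl7a1 cDNA behind a CMV promoter, and both were kept under G418 selection and exposed to cycloheximide before lysis. From the sucrose gradients, fractions 3 to 7 (free ribosomal subunits and monosomes) were pooled as the sub-polysomal RNA and fractions 8 to 11 as the polysomal RNA, with 3 replicates in each of the 4 groups. METTL7A1 is a putative methyltransferase, and the gradients addressed whether its expression moved mRNAs onto polysomes. Whether either line was a single clone is not given in the sources used here, and mock and METTL7A1 libraries shared no replicate letter, so METTL7A1 and any earlier difference between the transfected populations cannot be told apart.

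MHC class I molecules carry peptides from the cytosol to the cell surface, where cytotoxic T cells inspect them. A polymorphic heavy chain (H2-K1 or H2-D1) pairs with the invariant light chain β2-microglobulin (B2m). Peptides enter the endoplasmic reticulum through a transporter made of Tap1 and Tap2, to which tapasin (Tapbp) tethers the empty class I molecule. Irf1 is a transcription factor induced by interferon-γ, and Nlrc5 is the transactivator that acts at class I promoters and requires the factors bound there. Tumour cells commonly lower these mRNAs together, and interferons raise them together.

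Of these genes, 5, written here in the order of their starts, lay in the MHC region of chromosome 17 (GRCm38). Tapbp spanned 33919332 to 33929292, H2-K1 33996017 to 34000347, Tap1 34187553 to 34197225, Tap2 34203527 to 34216321 and H2-D1 35262730 to 35267499. B2m lay on chromosome 2 (122147686 to 122153083), Irf1 on chromosome 11 (53770014 to 53778374) and Nlrc5 on chromosome 8 (94434391 to 94527272). The exons of H2-K1, H2-D1 and B2m overlapped no other annotated gene. Exons of the others shared bases with genes on the opposite strand, namely 7.2% of Tap1 with Psmb9, 15.0% of Tap2 with Gm15821 and 0.7% with Gm20496, 23.5% of Tapbp with Gm19412, 18.5% of Irf1 with Gm17334 and 0.5% of Nlrc5 with 9330175E14Rik. The kit marked strand, but whether the counting used it is not given in the sources used here, so reads of these stretches cannot be assigned with certainty. BALB/c mice carry other class I alleles than the reference strain, and class I heavy chain genes share long near-identical stretches, so the counts of H2-K1, H2-D1 and the other heavy chains are uncertain as to which copy the reads came from.

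The sequences just upstream of RefSeq start sites are shown for the chains and for Irf1 because the members named as their regulators act through such elements. RefSeq (GRCm38.p6) held upstream windows for 6 of the 8 genes, and Tap2 and Nlrc5 had none. The 6 letter patterns named below were searched on both strands, and capitals mark the matches, each line being written 5′ to 3′ in the direction of the gene. H2-K1 is read from the minus strand of chr17:34000348-34000597, H2-D1 from the plus strand of chr17:35262913-35262942, B2m from the plus strand of chr2:122147437-122147685 and Irf1 from the plus strand of chr11:53769764-53770013. The RefSeq start used for H2-D1, 35263094, lies inside the span given above for that gene, and so does its printed stretch. Distances for H2-D1 are from that RefSeq start.
H2-K1: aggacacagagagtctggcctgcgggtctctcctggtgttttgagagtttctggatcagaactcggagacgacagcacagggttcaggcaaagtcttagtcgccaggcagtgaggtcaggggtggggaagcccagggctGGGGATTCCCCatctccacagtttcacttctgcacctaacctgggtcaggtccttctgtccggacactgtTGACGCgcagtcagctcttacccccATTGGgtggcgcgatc
H2-D1: gcccagggctGGGGATTCCCCatctcctca
B2m: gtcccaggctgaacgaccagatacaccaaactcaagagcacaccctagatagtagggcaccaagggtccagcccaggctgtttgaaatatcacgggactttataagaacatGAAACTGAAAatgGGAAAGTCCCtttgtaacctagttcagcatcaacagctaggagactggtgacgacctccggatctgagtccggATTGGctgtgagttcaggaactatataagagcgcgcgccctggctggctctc
Irf1: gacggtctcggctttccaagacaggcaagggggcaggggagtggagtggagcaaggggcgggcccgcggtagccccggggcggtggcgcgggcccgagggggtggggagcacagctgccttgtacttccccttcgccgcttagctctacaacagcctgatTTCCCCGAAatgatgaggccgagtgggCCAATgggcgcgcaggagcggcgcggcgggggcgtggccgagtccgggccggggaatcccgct

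Both heavy chain windows held the class I enhancer A, an NF-kB site, whose palindrome is the first run of capitals in both lines, at 111 to 101 bases before the start of H2-K1 and 171 to 161 bases before the start of H2-D1. That pattern occurred in 10 of 32851 upstream windows (0.0304%). Around it, 29 of 30 bases were identical between the genes, and over the ungapped overlap of the windows 166 of 190 bases were (87.4%). Each also held a CREB/ATF core, TGACGC (6.12% of windows), 41 to 36 bases before the start of H2-K1 and 101 to 96 bases before that of H2-D1. B2m held an interferon-stimulated response element core, which is GAAA, any 2 bases and GAAA again (2.98% of windows), 139 to 130 bases before its start. Next to it, on the other strand, lay an NF-kB pattern made of GGG, any 2 bases and TTTCC (1.41% of windows). No other member searched matched that interferon pattern, but variant forms of the element were not searched. The heavy chain windows may therefore hold interferon elements that these patterns miss. Irf1 held the gamma-activated site TTCNNNGAA, the binding pattern of STAT factors (7.02% of windows), 90 to 82 bases before its start. CCAAT boxes, found in 33.8% of windows, occurred in all 6 members searched, so this pattern set them apart least. Starts of Tap1 and Psmb9 lay 226 bases apart on opposite strands.

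The libraries held 1817520 to 6966156 counts. Mettl7a1 had 4 to 24 counts in mock and 989 to 2436 counts in METTL7A1 libraries, as labelled. Mitochondrial transcripts took 4.37% to 8.49% of sub-polysomal and 0.684% to 2.14% of polysomal counts. The epithelial genes Krt8, Krt18 and Epcam had 631 or more counts in every library, while the basal keratin Krt5 had 0 in all 12. Of 7 epithelial genes tested, 3 rose (Krt8, Krt18 and Ocln) and 1 fell (Esrp1) in polysomal RNA, where 5.03% of all genes rose and 3.78% fell. In sub-polysomal RNA 1 rose (Krt8) and 2 fell (Epcam and Esrp1), where 10.5% of all genes rose and 7.69% fell, Krt8 having a log2 change of 0.82 and 0.81. These genes were named after their values were seen. In the list of leukocyte markers, Cd3e, Adgre1, Lyz2, Itgax and Nkg7 had no count in any library, and Ptprc, which defines leukocytes, had at most 1 count. In polysomal RNA the summed level of that list was nevertheless higher in METTL7A1 libraries (14.8 to 23.6 CPM, counts scaled to library size) than in mock libraries (5.05 to 8.19 CPM). The sub-polysomal sums overlapped narrowly, at 11.2 to 19.6 CPM in METTL7A1 and 8.50 to 11.3 CPM in mock libraries. Of the 10 genes in that list 1 was tested, Cd68, a lysosomal protein of macrophages. Cd68 rose in polysomal RNA with a log2 change of 1.56 (edgeR's quasi-likelihood test, adjusted p = 1.1e-04). Of 7 fibroblast and endothelial markers, 3 had no count in any library, and their sums were 0.987 to 5.87 CPM in mock and 1.91 to 4.52 CPM in METTL7A1 libraries. The part of any of these in the results below was not tested. Of 6 class II genes, H2-Aa had no count in any library and 3 were tested, of which 1 rose and 1 fell in polysomal RNA. Cd74, the invariant chain, rose from 1.32 ± 0.548 to 5.76 ± 0.856 CPM (SD, n = 3), and H2-DMa, a subunit of the class II peptide editor, fell from 12.96 ± 4.23 to 6.53 ± 0.404 CPM. Both were chosen after their values were seen, and the summed level of the list overlapped between the genotypes (9.56 to 19.1 CPM in mock and 12.5 to 15.2 CPM in METTL7A1 polysomal RNA).

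Levels below are CPM scaled with TMM factors. Per kilobase of exon the order was the same by group mean in all 4 groups. In mock polysomal RNA B2m led with 700.4 ± 119 CPM per kb (SD, n = 3), followed by H2-D1 with 309.9 ± 45.5, H2-K1 with 215 ± 37.8 and Tapbp with 44.3 ± 6.12 CPM per kb. The scarce members were Irf1 (9.32 ± 1.83 CPM per kb), Tap2 (6.52), Tap1 (2.36 ± 0.900) and Nlrc5 (0.103 ± 0.0303). Neighbours in this order did not overlap in mock polysomal libraries apart from Irf1 and Tap2. The chains were thus abundant mRNAs in these carcinoma cells, the peptide transporter was much scarcer, and Nlrc5 was barely detected, with 1 to 8 counts in mock libraries.

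**Figure D1:**
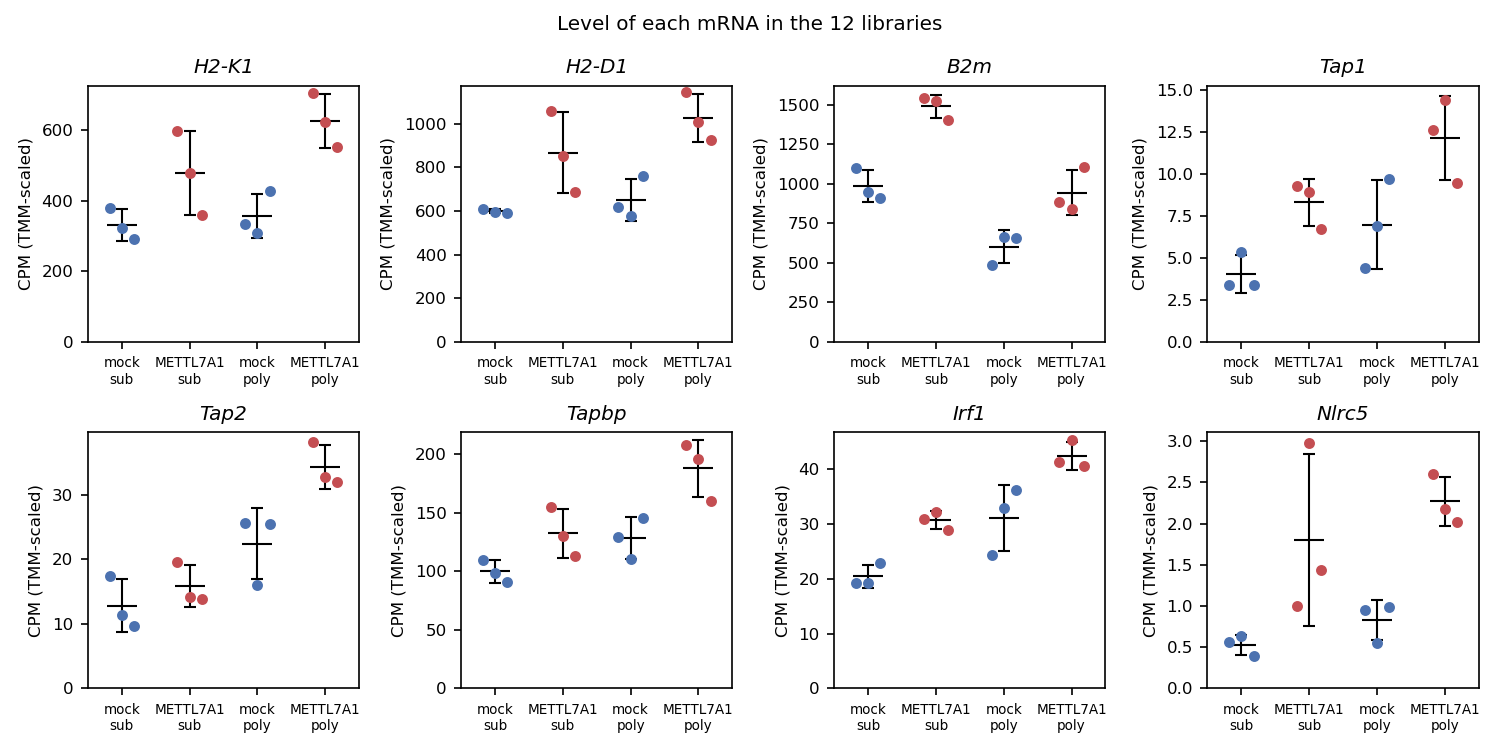
Level of each of the 8 mRNAs in the 12 libraries, as TMM-scaled CPM on linear axes from 0. Points are libraries in letter order (blue mock, red METTL7A1), and black marks give the mean and SD of 3 replicates. Red points lie above blue points of the same pool in 7 panels for polysomal and 6 panels for sub-polysomal RNA.

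The first question was whether class I mRNAs differed between METTL7A1 and mock cells. All 8 had fitted changes above 0 in both pools, as 48.7% of all genes had in polysomal and 49.9% in sub-polysomal RNA. Polysomal log2 changes lay between 0.45 (Irf1) and 1.42 (Nlrc5). H2-K1 rose in polysomal RNA, being the member that passed an adjusted p-value of 0.01 from edgeR's quasi-likelihood test over 12224 genes. That was 1 of 8 members, where 5.03% of all genes tested passed as higher. At an adjusted p-value below 0.05 all 8 were higher in polysomal RNA (9.69% of all genes) and 6 were in sub-polysomal RNA (16.8% of all genes). Nlrc5, which is among those counted here and below, met the filter for testing only with METTL7A1 libraries included. The 8 had a median log2 change of 0.65 (polysomal) and 0.55 (sub-polysomal), beside -0.014 and -0.0015 for all genes. No member passed 0.01 in sub-polysomal RNA with edgeR, where 10.5% of all genes passed as higher. There 7 members had an unadjusted p under 0.05 (22.1% of all genes, as higher). In that pool 2 members passed 0.01 with DESeq2 and 1 with limma-voom, where 20.3% and 17% of all genes passed in either direction. Groups did not overlap for 7 members in polysomal RNA and 6 in sub-polysomal RNA, where 18.9% and 23.5% of all genes were higher without overlap. The count at 0.05 fell when some single replicates were left out. In polysomal RNA it was 2 without mock replicate B or METTL7A1 replicate E, 3 without D and 4 without F. In sub-polysomal RNA it was 2 without B or D, 1 without C and 0 without E. Calls over all genes fell in these fits too. In polysomal RNA 8.81% of all genes passed 0.01 in either direction, and 5.2%, 4.65%, 3.93% and 5.5% did without B, D, E and F. In sub-polysomal RNA 18.2% passed, and 15.6%, 13.5%, 10.7% and 9.01% did without B, C, D and E. Shares at 0.05 were not computed for these fits.

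The light chain and the heavy chains had the best counted mRNAs. H2-K1 stood at 334, 308 and 427 CPM in mock polysomal libraries and at 704, 623 and 551 CPM in METTL7A1 polysomal libraries. The lowest METTL7A1 value was above the highest mock value. Its log2 change was 0.81 (standard error 0.19, adjusted p = 0.00504), a fold of 1.76. In sub-polysomal RNA H2-K1 was at 380.4, 321 and 292 CPM in mock and at 597, 479 and 360.1 CPM in METTL7A1 cells. Here the groups overlapped, since METTL7A1 replicate F lay below mock replicate A, and the log2 change was 0.53 (standard error 0.19, adjusted p = 0.0369). The polysomal call was lost without mock replicate B (adjusted p = 0.0392), without METTL7A1 replicate D (0.0236) or E (0.0364), and with scaling to Actb (0.0103), with log2 changes between 0.72 and 0.91 in these fits.

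H2-D1, the other classical heavy chain, was at 616, 578 and 759.7 CPM in mock and at 1144, 1010.3 and 925 CPM in METTL7A1 polysomal libraries. In sub-polysomal RNA the values were 608, 595 and 592 CPM in mock and 1059, 853 and 689 CPM in METTL7A1 cells. The groups were apart in both pools, and replicate D was the highest METTL7A1 library in each. The log2 changes were 0.66 in polysomal (standard error 0.17, adjusted p = 0.0120) and 0.53 in sub-polysomal RNA (standard error 0.17, adjusted p = 0.0239). Neither passed 0.01 in this fit, whereas DESeq2 gave adjusted p-values of 5.63e-04 and 0.00467. Those were the lowest adjusted p-values of H2-D1 among 14 alternative fits. The highest reached 0.0724 for the polysomal comparison and 0.154 for the sub-polysomal comparison, so the result depended on the fit. Counts of H2-D1 were 1.83 ± 0.0505 times those of H2-K1 (SD, n = 3) in mock polysomal and 1.64 ± 0.0326 times in METTL7A1 polysomal libraries. The 3 polysomal ratios of each genotype did not overlap (1.78 to 1.88 against 1.62 to 1.68). With 3 against 3, an exact permutation p cannot fall below 0.1. In sub-polysomal RNA the genotypes overlapped, with ratios of 1.83 ± 0.215 in mock and 1.82 ± 0.0784 in METTL7A1 libraries (SD, n = 3).

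B2m, the light chain shared by all class I molecules, was at 484, 666 and 657 CPM in mock and at 883, 841 and 1107 CPM in METTL7A1 polysomal RNA. In sub-polysomal RNA it was at 1099, 948 and 908 CPM in mock and at 1545, 1522 and 1404 CPM in METTL7A1 cells. In either pool every METTL7A1 library exceeded every mock library. The log2 changes, 0.65 in polysomal (standard error 0.17, adjusted p = 0.0118) and 0.60 in sub-polysomal RNA (standard error 0.17, adjusted p = 0.0116), were nearly equal. The ratio of B2m to both heavy chains per kilobase overlapped between the genotypes in both pools. It was 1.35 ± 0.290 in mock and 1.29 ± 0.329 in METTL7A1 polysomal RNA (SD, n = 3), and 2.36 ± 0.0883 and 2.54 ± 0.458 in sub-polysomal RNA.

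**Figure D2:**
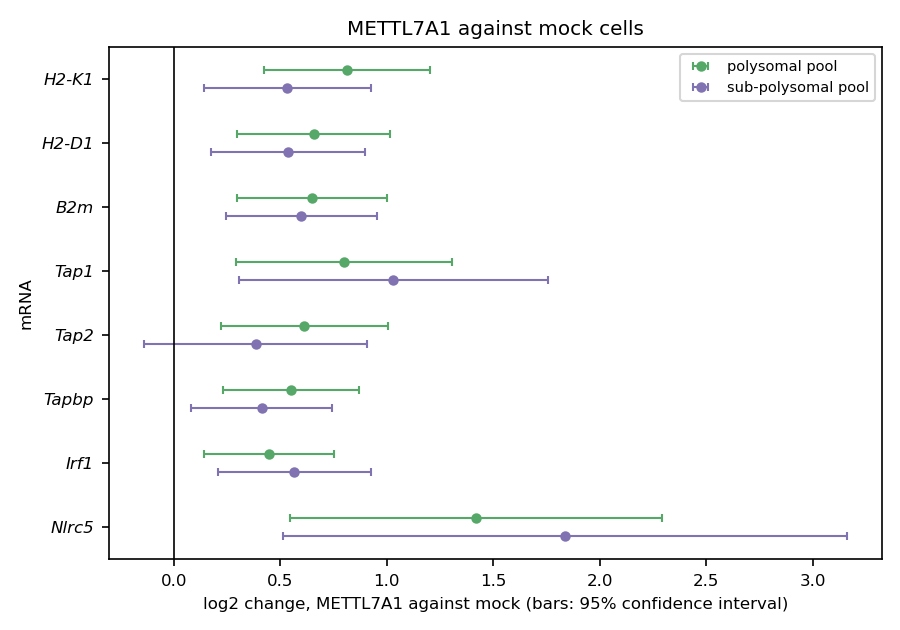
Log2 change of each mRNA in METTL7A1 against mock cells, in polysomal (green) and sub-polysomal (purple) RNA. Points are edgeR estimates from 3 against 3 libraries and bars their 95% confidence intervals. All 16 points lie above 0, and the interval of Tap2 in sub-polysomal RNA includes 0.

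Among the peptide loading mRNAs, Tapbp was the best counted. It was at 129, 110.2 and 146 CPM in mock and at 208, 196 and 160.4 CPM in METTL7A1 polysomal RNA, which did not overlap. The log2 change was 0.55 (standard error 0.15, adjusted p = 0.0165). In sub-polysomal RNA the METTL7A1 libraries (113 to 155 CPM) again lay above the mock libraries (90.6 to 110.0 CPM), with a log2 change of 0.41 (standard error 0.16, adjusted p = 0.0548).

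The transporter subunits behaved less evenly. Tap1 was at 4.37, 6.87 and 9.68 CPM in mock and at 12.6, 14.4 and 9.43 CPM in METTL7A1 polysomal RNA. It was the member whose polysomal groups overlapped, METTL7A1 replicate F lying just below mock replicate C, and its log2 change was 0.80 (standard error 0.24, adjusted p = 0.0280). In sub-polysomal RNA Tap1 was apart, at 3.36 to 5.35 CPM in mock and 6.69 to 9.28 CPM in METTL7A1 cells. Its log2 change there was 1.03 (standard error 0.35, adjusted p = 0.0300) from 6 to 36 counts per library. Tap2 showed the reverse order of pools. It was at 25.7, 16.1 and 25.6 CPM in mock and at 38.2, 32.7 and 32.0 CPM in METTL7A1 polysomal RNA, a log2 change of 0.61 (standard error 0.19, adjusted p = 0.0289) with no overlap. In sub-polysomal RNA it was at 9.67 to 17.5 CPM in mock and 13.9 to 19.6 CPM in METTL7A1 cells. These overlapped, and the log2 change of 0.38 had a 95% confidence interval from -0.14 to 0.91 (adjusted p = 0.256). Whether Tap1 and Tap2 differed from each other in this respect was not tested. Tap1 had 0.33 ± 0.137 times the counts of Tap2 in mock and 0.35 ± 0.0754 times in METTL7A1 polysomal RNA (SD, n = 3), where the genotypes overlapped. In sub-polysomal RNA the ratio ran from 0.194 to 0.472 in mock (mean 0.34) and from 0.475 to 0.632 in METTL7A1 cells (mean 0.53), where they did not.

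Of the regulators, Irf1 was at 24.3, 32.9 and 36.1 CPM in mock and at 41.2, 45.3 and 40.6 CPM in METTL7A1 polysomal RNA. In sub-polysomal RNA it was at 19.2, 19.2 and 22.9 CPM in mock and at 30.8, 32.3 and 28.9 CPM in METTL7A1 cells. The genotypes did not overlap in either pool, and the METTL7A1 replicates were tighter than the mock replicates. The log2 changes were 0.45 (standard error 0.15, adjusted p = 0.0393) and 0.56 (standard error 0.17, adjusted p = 0.0178).

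Nlrc5 had the largest fitted difference of the 8 and the fewest counts. Mock libraries alone did not meet the filter of 1 CPM in 3 libraries, so this gene was tested because of its METTL7A1 libraries. Such a filter favours a rise in METTL7A1 cells, and the values are given as a description. Nlrc5 had 7, 4 and 8 counts in mock and 19, 17 and 12 counts in METTL7A1 polysomal libraries. In sub-polysomal libraries it had 1, 2 and 2 counts against 3, 12 and 6 counts. In CPM the groups did not overlap in either pool (0.550 to 0.993 against 2.02 to 2.60 in polysomal RNA, and 0.395 to 0.629 against 0.995 to 2.98 in sub-polysomal RNA). Summed over replicates, the METTL7A1 to mock ratio was 2.72 (95% exact counting interval 1.57 to 4.90) in polysomal and 3.75 (1.37 to 12.7) in sub-polysomal RNA. These intervals cover counting error only, and the mock sub-polysomal libraries lie under the floor of 3 counts. The fitted log2 changes were 1.42 (standard error 0.42, adjusted p = 0.0236) and 1.84 (standard error 0.63, adjusted p = 0.0333).

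Across the 12 libraries, 6 members followed the mean of the other 7 with Pearson's r between 0.83 and 0.94 on the log2 scale (H2-K1 0.94, H2-D1 0.94, Tapbp 0.92, Tap1 0.88, Irf1 0.83 and Nlrc5 0.83). Tap2 followed it less closely (r = 0.66) and B2m hardly (r = 0.13). These correlations are descriptions over libraries that share 4 groups, and the difference between pools enters them. Among 9450 other genes with a mean of at least 5 CPM, the pattern was most like that of Slco4a1 (r = 0.972), Cd82 (0.972), Adamts14 (0.972), Loxl4 (0.970) and Notch1 (0.968). Their log2 changes in METTL7A1 cells lay between 0.96 (Slco4a1) and 1.80 (Cd82) in polysomal RNA. In sub-polysomal RNA they lay between 0.85 (Adamts14) and 1.81 (Cd82).

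The wider pathway was read from lists of related genes. Of 15 other class I and class I-like heavy chains, 13 were tested. In polysomal RNA 3 rose (H2-T22, H2-M3 and H2-Q6), none fell (5.03% and 3.78% of all genes), 11 of 13 had a log2 change above 0, and the median was 0.78. H2-T22, a ligand of γδ T cells, went from 17.0 ± 4.39 to 31.4 ± 3.80 CPM (SD, n = 3) in polysomal RNA, a log2 change of 0.88 (adjusted p = 0.00203). It also rose in sub-polysomal RNA, from 56.3 ± 8.58 to 109 ± 3.32 CPM (log2 change 0.94, adjusted p = 4.72e-04). H2-M3, which presents formylated peptides, had a log2 change of 0.76 (adjusted p = 0.00233) in polysomal and 0.36 (adjusted p = 0.123) in sub-polysomal RNA. H2-Q6 had 0.74 (adjusted p = 0.00996) and -0.13 (adjusted p = 0.702). In sub-polysomal RNA the list median was 0.36 with 1 of 13 passed as higher, where 10.5% of all genes passed as higher and 7.69% as lower. H2-Q6 and its neighbours are near-identical copies, and their counts are uncertain in the same way as those of the classical chains.

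In the list for peptide supply and loading, 3 of 12 rose and none fell in polysomal RNA (5.03% and 3.78% of all genes), with a median log2 change of 0.52. These were the endoplasmic reticulum proteins Pdia3, which holds tapasin in the loading complex (log2 change 0.98, adjusted p = 0.00172), Calr, the lectin chaperone of the heavy chain (0.87, adjusted p = 0.00213), and Hspa5, the general chaperone BiP (0.91, adjusted p = 0.00194). In sub-polysomal RNA their log2 changes were 0.27, 0.19 and 0.032, none of which passed. In that pool 1 of 12 rose and 1 fell (10.5% and 7.69% of all genes). Psmb8, an immunoproteasome subunit, rose there with a log2 change of 1.10 (adjusted p = 0.00121), from 16.3 ± 4.67 to 36.9 ± 10.7 CPM (SD, n = 3). Its polysomal log2 change was 0.68 (adjusted p = 0.0188). Erap1, the trimming peptidase, which was chosen after its values were seen, fell in sub-polysomal RNA by 0.79 on the log2 scale (adjusted p = 0.00393). The list median there was 0.010, with 6 of 12 genes above 0 and log2 changes from -0.79 to 1.10.

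**Figure D3:**
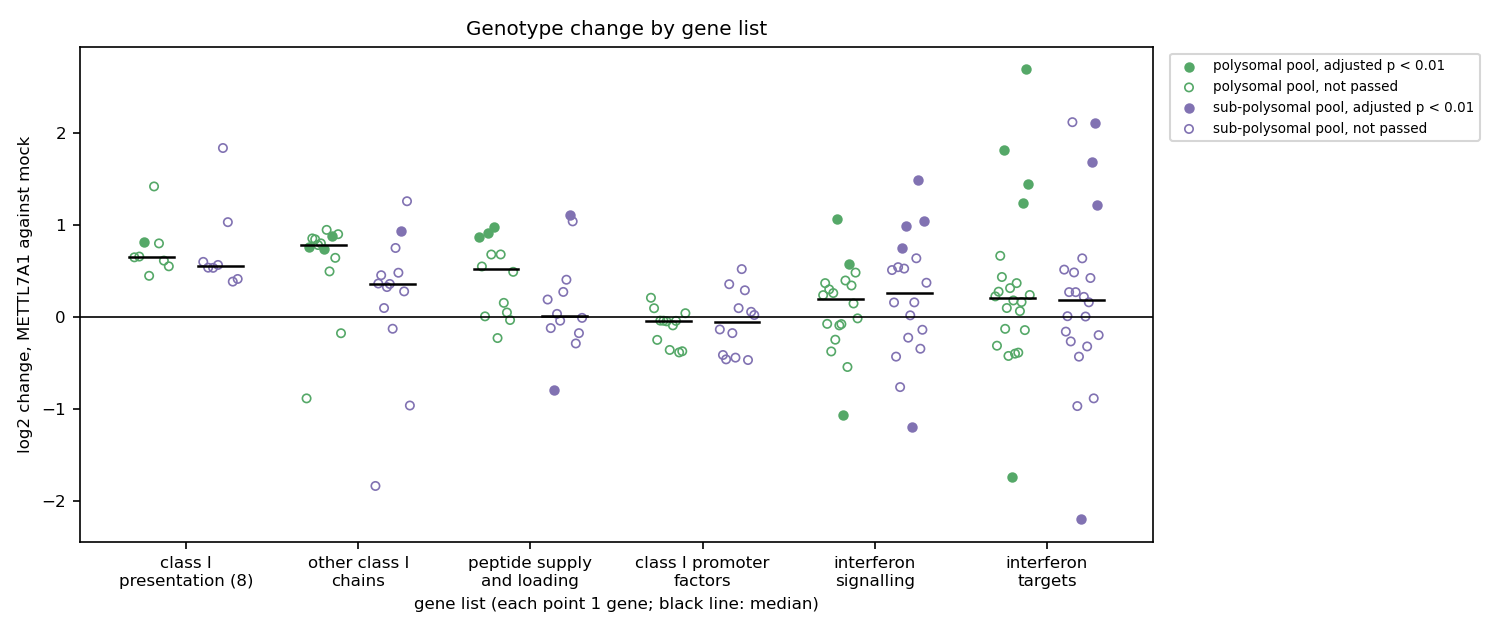
Log2 change in METTL7A1 against mock cells for the genes of 6 lists, in polysomal (green) and sub-polysomal (purple) RNA. Each point is 1 gene, filled where its adjusted p-value was below 0.01, and black lines are list medians. Medians of the 8 members are 0.65 and 0.55, and those of the class I promoter factors are near 0.

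Of 13 genes for factors that bind class I promoters, such as Rfx5, Creb1, Rela and Nfkb1, 12 were tested with edgeR. None passed in either pool, where 5.03% of all genes passed as higher and 3.78% as lower in polysomal RNA and 10.5% and 7.69% did in sub-polysomal RNA. An unadjusted p under 0.05 was found for 1 of 12 in polysomal (31.2% of all genes) and 5 of 12 in sub-polysomal RNA (42.3% of all genes). The list medians were -0.046 (polysomal) and -0.059 (sub-polysomal).

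Of 18 interferon signalling mRNAs tested, most did not pass. In polysomal RNA 2 rose and 1 fell (5.03% and 3.78% of all genes), and in sub-polysomal RNA 4 rose and 1 fell (10.5% and 7.69% of all genes). The gene that fell in both was Jak2, a kinase of the interferon-γ receptor. It went from 71.8 ± 2.62 to 34.3 ± 1.64 CPM (SD, n = 3) in polysomal RNA (log2 change -1.07, adjusted p = 2e-05). Its sub-polysomal log2 change was -1.20 (adjusted p = 1.94e-05). Socs3, an inhibitor of JAK signalling, rose with log2 changes of 0.58 (adjusted p = 0.00863) in polysomal and 1.49 (adjusted p = 4.93e-06) in sub-polysomal RNA. Irf8 rose with 1.07 (adjusted p = 0.00140) and 0.99 (adjusted p = 0.00473). Stat3 rose in sub-polysomal RNA (1.05, adjusted p = 0.00941) and had a log2 change of 0.48 in polysomal RNA (adjusted p = 0.116). Irf3, chosen after its values were seen, rose in sub-polysomal RNA with 0.75 (adjusted p = 0.00105).

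Of 22 interferon-stimulated mRNAs outside antigen presentation that were tested, 4 rose and 1 fell in polysomal RNA (5.03% and 3.78% of all genes), 15 had a log2 change above 0 (48.7% of all genes) and the median was 0.20. In sub-polysomal RNA 3 rose and 1 fell (10.5% and 7.69% of all genes), 14 were above 0 (49.9% of all genes) and the median was 0.19. Rsad2, the antiviral protein viperin, rose from 1.67 ± 0.499 to 10.9 ± 0.420 CPM (SD, n = 3) in polysomal RNA, a log2 change of 2.69 (adjusted p = 3.34e-07). Usp18, which removes ISG15 from proteins, rose with 1.45 (adjusted p = 1.31e-05) and Oasl1 with 1.24 (adjusted p = 1.34e-04). Gbp4, chosen after its values were seen, rose with 1.81 (adjusted p = 0.00542). Ifit2, another classical interferon target, fell from 10.6 ± 1.79 to 3.15 ± 0.715 CPM (log2 change -1.74, adjusted p = 8.73e-05). In sub-polysomal RNA the log2 changes of Rsad2, Usp18, Oasl1 and Ifit2 were 2.11, 1.22, 1.68 and -2.20, each with an adjusted p-value of 0.00176 or less. The members' median of 0.65 in polysomal RNA thus lay above the medians of the signalling list (0.19) and of this list, and no test was made between them.

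The next question was how each mRNA divided between the pools. In mock cells Tap2 and Irf1 passed as higher and B2m as lower in polysomal than in sub-polysomal RNA, which is 3 of 8 members where 33.6% of all genes passed (15.7% higher, 17.9% lower). In METTL7A1 cells Tap2 and Tapbp passed as higher and B2m as lower, again 3 of 8, where 46.7% of all genes passed (23% higher, 23.7% lower). These shares are near those of all genes. The median log2 pool ratio of the 8 was 0.48 in mock and 0.43 in METTL7A1 cells, beside 0.054 and 0.058 for all genes.

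B2m stood apart from H2-K1 and H2-D1. Its log2 pool ratio was -0.71 (standard error 0.17, adjusted p = 0.00213) in mock and -0.66 (standard error 0.17, adjusted p = 0.00255) in METTL7A1 cells, and every sub-polysomal library was above every polysomal library of its genotype. The heavy chains were near even, with log2 pool ratios of 0.11 for H2-K1 and 0.12 for H2-D1 in mock cells and 0.39 and 0.24 in METTL7A1 cells, none of which passed. Accordingly, the ratio of B2m to the heavy chains per kilobase was 2.36 ± 0.0883 in sub-polysomal and 1.35 ± 0.290 in polysomal RNA of mock cells (SD, n = 3). In METTL7A1 cells it was 2.54 ± 0.458 and 1.29 ± 0.329, and the pools did not overlap in either genotype. With TMM factors set within each pool the B2m ratios were -0.29 and -0.22, with adjusted p-values of 0.131 and 0.232, as that scaling moved the median of all genes by 0.42 and 0.43. The mock call was also lost in a fit of the compared groups alone (adjusted p = 0.0110), and the METTL7A1 call without replicate D (0.0378) or E (0.0548). Of 13 other class I and class I-like heavy chains tested, 2 passed as lower in polysomal RNA in each genotype (17.9% and 23.7% of all genes). As higher, 0 passed in mock and 5 in METTL7A1 cells (15.7% and 23% of all genes). The lowest log2 pool ratio in that list was -1.80 in either genotype, below that of B2m.

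Tap2 had the highest ratios, 0.90 (standard error 0.23, adjusted p = 0.00337) in mock and 1.13 (standard error 0.21, adjusted p = 1.43e-04) in METTL7A1 cells. The mock ratio was 0.60 without mock replicate C, with an adjusted p-value of 0.0895, and its call was also lost with the compared groups alone (0.0126) and with Actb scaling (0.0145). Tap1, its partner, had log2 pool ratios of 0.80 (adjusted p = 0.0528) and 0.57 (adjusted p = 0.0712). Those of Tapbp were 0.37 (adjusted p = 0.0593) and 0.51 (adjusted p = 0.00828), the latter call being lost without any 1 of the METTL7A1 replicates (adjusted p between 0.0200 and 0.0851) and with Actb scaling (log2 ratio 0.26, adjusted p = 0.254). Irf1 had 0.59 (adjusted p = 0.00688) and 0.47 (adjusted p = 0.0133), and the mock call was lost without mock replicate B (0.0726) or C (0.0333), without D, E or F (0.0117 to 0.0139), with the compared groups alone (0.0256), with Actb scaling (0.0404), and with DESeq2, limma-voom or RLE factors (0.0101 to 0.0142). Nlrc5 had 0.71 and 0.29 with standard errors of 0.66 and 0.42, which its counts do not resolve.

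**Figure D4:**
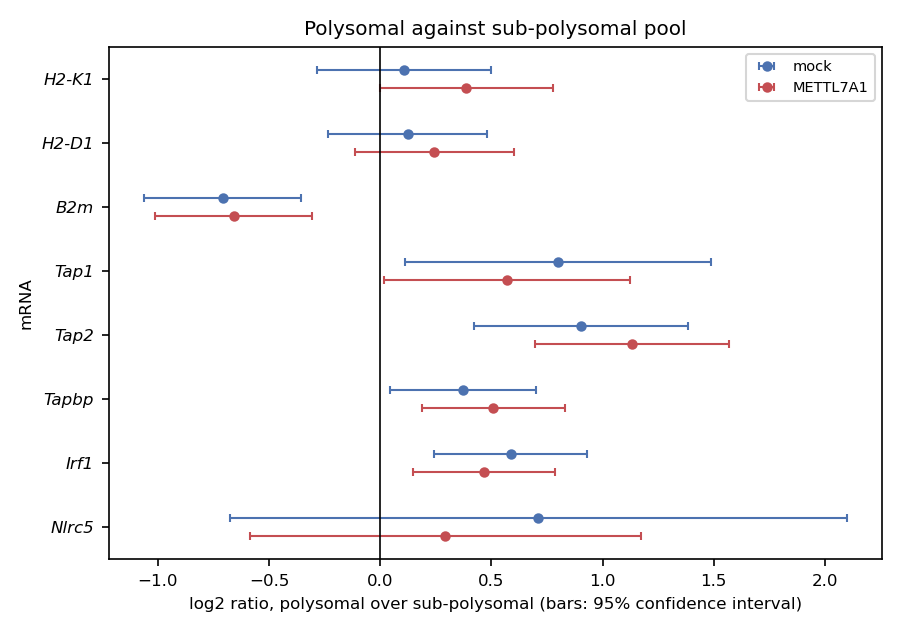
Log2 ratio of polysomal over sub-polysomal RNA for each mRNA in mock (blue) and METTL7A1 (red) cells. Points are edgeR estimates and bars their 95% confidence intervals. B2m is the mRNA below 0, Tap2 has the highest ratios, and the intervals of the genotypes overlap for each of the 8.

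Short coding sequences have room for few ribosomes, so the ratios were set beside coding length from the GENCODE annotation of GRCm38. Over 10842 tested genes the log2 pool ratio followed coding length with a Spearman's rho of 0.546 in mock and 0.537 in METTL7A1 cells, a description across genes that share these libraries. B2m has a coding length of 357 nt, and 3.42% of these genes are shorter. Irf1 has 987 nt, H2-D1 1086, H2-K1 1107, Tapbp 1398, Tap2 2106, Tap1 2172 and Nlrc5 5745 nt. Genes with more than 600 and up to 1200 nt had a median log2 pool ratio of -0.069 in mock and -0.11 in METTL7A1 cells, so that both heavy chains and Irf1 lay above the median of their length class. The 381 genes no longer than B2m had medians of -1.47 and -1.84, and 87.1% of them in mock and 90.6% in METTL7A1 cells had a lower ratio than B2m. B2m was therefore depleted from polysomes relative to H2-K1 and H2-D1, yet it lay higher than most mRNAs of its length.

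**Figure D5:**
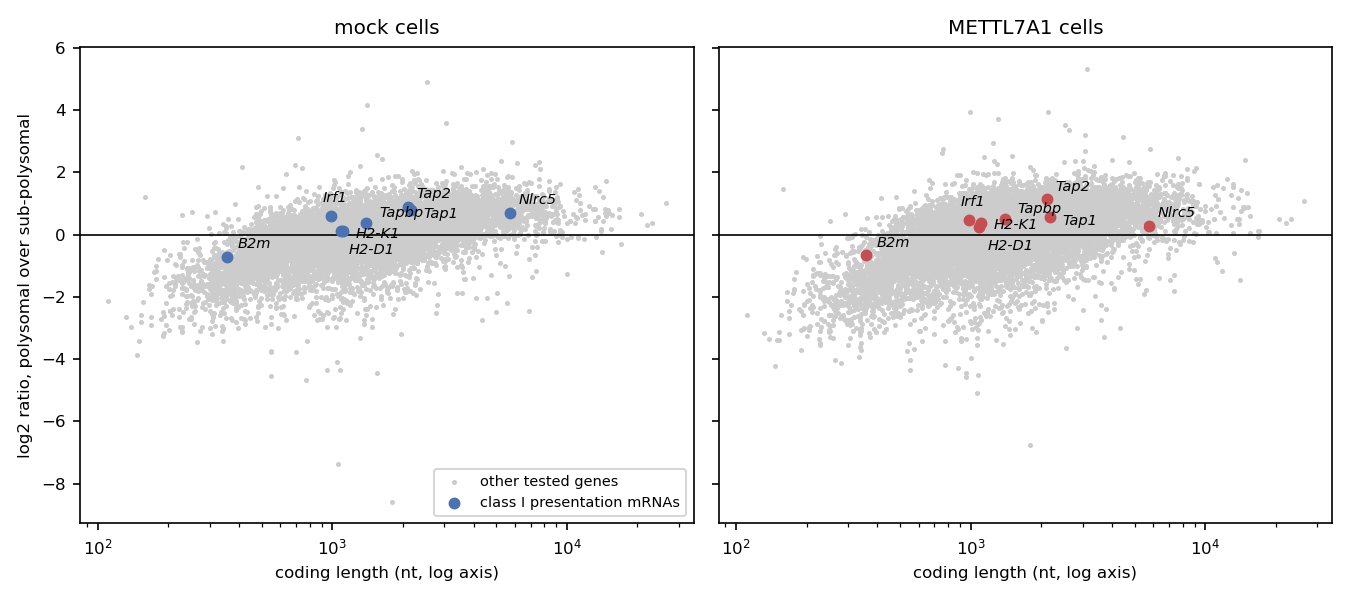
Log2 ratio of polysomal over sub-polysomal RNA against coding length (log axis) in mock and METTL7A1 cells. Grey points are the tested genes with a coding length and coloured points the 8 mRNAs. B2m lies at the short end at -0.71 and -0.66, above most genes of its length.

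Finally, the shift to polysomes was the log2 pool ratio in METTL7A1 minus that in mock cells, which asks whether METTL7A1 moved an mRNA between the pools apart from its level. No member passed, the adjusted p-values lying between 0.647 and 0.945 from edgeR's quasi-likelihood test, where 0% of all genes passed at 0.01. No member had an unadjusted p under 0.05, as 15.6% of all genes had. With DESeq2 and limma-voom 0 of 8 also passed 0.01, where 0.524% and 0% of all genes passed. The shifts ran from -0.42 (Nlrc5, 95% confidence interval -2.05 to 1.21) to 0.28 (H2-K1, -0.27 to 0.83). Those of the others were 0.23 for Tap2, 0.14 for Tapbp, 0.12 for H2-D1, 0.050 for B2m, -0.12 for Irf1 and -0.23 for Tap1. The interval was -0.39 to 0.63 for H2-D1 and -0.45 to 0.55 for B2m. For each of the 3 chains, shifts within its own interval were not excluded. The signs of 5 members (H2-D1, B2m, Tapbp, Tap1 and Nlrc5) turned with scaling to Actb or without single replicates.

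Ratios of single replicates were also formed between the pools of 1 letter, as a description, since libraries of 1 letter did not deviate together. For H2-K1 they were -0.19, -0.063 and 0.55 in mock and 0.24, 0.38 and 0.61 in METTL7A1 cells. For B2m they were -1.18, -0.51 and -0.47 against -0.81, -0.85 and -0.34. Mock replicate C had the highest ratio of the mock replicates for H2-K1, H2-D1, B2m, Tap1, Tap2, Tapbp and Nlrc5, and in each it lay above the lowest METTL7A1 ratio. All 8 overlapped between the genotypes, where 22.8% of all genes did not, and two-sided exact permutation tests gave p-values between 0.3 and 1, with 0.1 as the smallest possible. The fitted genotype differences thus had the same direction in both pools, and a difference between the pools was not resolved. Since these are bulk libraries scaled to equal totals, a rise in some cells and a rise in all cells cannot be told apart.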

How the data were processed

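Polysomal and sub-polysomal RNA of mock and METTL7A1 4T1 cells was analysed from deposited counts, which the authors obtained by aligning reads to mm10 (GRCm38) with STAR 2.5.3a and assigning them to genes with featureCounts, per the labels without normalization. The counts were whole numbers for 55376 genes. The 8 members and all gene lists were chosen with earlier results of these data known. Genes reaching 1 CPM in 3 or more libraries were fitted in edgeR 4.0.16 (R 4.3.3, TMM factors, quasi-likelihood test, 1 mean for each of 4 groups, 12 libraries), and p-values were adjusted by Benjamini-Hochberg over all 12224 genes. A gene passed at an adjusted p-value below 0.01. The thresholds follow the study's methods, whose further limit, a log2 change of 1.5, no member met with an adjusted p-value below 0.01. The study describes its gradient profiles as representing independent fractionations of biological triplicates, and the labels do not tie each library to a culture.

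Named were the 8 members, Mettl7a1, Actb for scaling, up to 4 genes per list that passed in a genotype comparison with a mean of at least 5 CPM (largest log2 change first), and the 5 genes nearest in pattern. Alternatives were DESeq2 1.42.0, limma-voom (limma 3.58.1), RLE and within-pool TMM factors, Actb scaling, other filters and thresholds, the compared groups alone, a replicate block and leaving out each replicate. The fits were tested on simulated counts. In a library, 3 counts equal 0.372 to 1.69 CPM. Intervals cover counting error or the fitted spread only. Promoter windows are from RefSeq, and coding lengths and exons from GENCODE M21. The spread between mock and METTL7A1 libraries cannot separate METTL7A1 from the cell population that carries it. In the list of leukocyte markers, 1 gene is not reported here.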

Additional observations from a re-analysis of the deposited data

How the results depend on the processing

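All 220 log2 changes of the 8 members by genotype, over both pools and all alternatives, were above 0, and 143 of them had an adjusted p-value below 0.05. These are refits of the same 12 libraries, so they do not count as independent results. They include Nlrc5, which was tested because of its METTL7A1 libraries, and the share of all genes was not computed for the 143. Of 566 comparisons with the reported values, 497 kept their direction and side of the threshold. In polysomal RNA the members passed by genotype numbered 1, and 8 at an adjusted p-value below 0.05, 0 with the limit on the log2 change, 4 with DESeq2, 3 with limma-voom, 0 with Actb scaling, 5 without a filter and 2 with the compared groups alone. Of all genes tested, in either direction, these settings passed in turn 18%, 2.13%, 10.5%, 9.1%, 6.55%, 6.56% and 8.3%. In sub-polysomal RNA they numbered 0, and 6 at 0.05, 2 with DESeq2, 1 with limma-voom, 4 with Actb scaling and 2 without a filter, beside 31.4%, 20.3%, 17%, 19.4% and 11.8% of all genes. For the pool ratio in mock cells they numbered 3, and 0 with the limit on the log2 change and 5 with TMM factors within each pool. With Actb scaling they were 1 and with the compared groups alone 0. These 4 settings passed 7.55%, 49.1%, 27% and 25.2% of all genes. At 0.05 the members were 6 with within-pool factors, 5 without a filter and 5 with the replicate block. For the pool ratio in METTL7A1 cells they numbered 3, and 0 with the limit and 6 with within-pool factors, beside 12.1% and 56.9% of all genes. With Actb scaling they were 2 at 0.05. In the main fit 47% (mock) and 59.3% (METTL7A1) of all genes passed 0.05 in the pool ratio. Shares at 0.05 were not computed for the other settings. Actb scaling moved the median of all genes by 0.26 in the sub-polysomal genotype comparison, -0.24 in the METTL7A1 pool ratio and -0.16 in the shift, and the members' median became 0.81 in the first of these and 0.18 in the second. Within-pool factors took the median pool ratio of the members to 0.90 in mock and 0.87 in METTL7A1 cells, and at least 10 counts in every library, which left 6 members, took that in mock cells to 0.22.

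When single replicates were left out, the members passed ranged from 0 to 2 (polysomal genotype), 0 to 1 (sub-polysomal genotype), 1 to 3 (mock pools), 1 to 4 (METTL7A1 pools) and 0 to 0 (shift). At 0.05 they ranged from 2 to 8, 0 to 7, 2 to 4, 1 to 6 and 0 to 0. In these fits 3.93% to 10.2%, 9.01% to 16.7%, 23.7% to 31.4%, 29.5% to 49.6% and 0% of all genes passed 0.01 in either direction. At 0.05 the shares in the full fit were 18%, 31.4%, 47%, 59.3% and 0%, and were not computed without single replicates. The members' medians ranged from 0.60 to 0.75, 0.46 to 0.66, 0.24 to 0.50, 0.38 to 0.49 and -0.036 to 0.27. Without mock replicate C the mock pool ratios of H2-K1 and H2-D1 turned to -0.13 and -0.0098 and the shift of Tap1 to 0.29. Without METTL7A1 replicate D the METTL7A1 pool ratio of Nlrc5 turned to -0.059, and without E its shift turned to 0.19. Over these fits the mock pool ratios were up to 0.22 for H2-K1 and 0.20 for H2-D1, the METTL7A1 pool ratio of Nlrc5 up to 0.89, and the shifts ranged up to 0.17 for B2m and down to -0.50 for Tap1 and -0.81 for Nlrc5. The shift of B2m turned to -0.13 without mock replicate A and to -0.12 without METTL7A1 replicate F. With Actb scaling the METTL7A1 pool ratio of H2-D1 was -0.0065, and the shifts of H2-D1, B2m and Tapbp were -0.045, -0.10 and -0.026. The cause of these turns was not tested, and none of the values passed the test.

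The letters A to C and D to F recur in both pools. Deviations of libraries with the same letter correlated across genes with r between -0.29 and 0.11, so the letters were not taken as pairs in the fits. Ratios of single replicates in the report use them by label only. With the replicate block the members passed were 3 for either pool ratio and 0 for the shift, as without it. In that fit 30.2% (mock pools), 44.1% (METTL7A1 pools) and 0% (shift) of all genes passed.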

Other observations

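Beyond the genotype change, 3 endoplasmic reticulum proteins of class I folding, chosen after their values were seen, had fitted shifts to polysomes above those of the 8 members, of which the highest was 0.28. The log2 shift was 0.88 for Hspa5 (95% confidence interval 0.33 to 1.42, adjusted p = 0.137, edgeR), 0.71 for Pdia3 (adjusted p = 0.225) and 0.68 for Calr (adjusted p = 0.201). Over the whole list of 12 genes for peptide supply and loading, 7 had higher and 2 lower pool ratios in METTL7A1 replicates without overlap, and the log2 shifts ran from -0.89 (Psmb9, adjusted p = 0.359) to 0.88. The other gene lower without overlap was Psmb10 (-0.63, adjusted p = 0.231). In all 3 named first the pool ratios of the METTL7A1 replicates lay above those of the mock replicates, where 22.8% of all genes had no overlap in either direction, and none passed the adjustment. Hspa5 went from 1066 ± 173 to 1089 ± 118 CPM in sub-polysomal RNA and from 1330.3 ± 175 to 2496 ± 476 CPM in polysomal RNA (SD, n = 3). H2-Q6 had a log2 shift of 0.87 (adjusted p = 0.169), with overlapping ratios. Cd274, which encodes PD-L1, the interferon-induced ligand that restrains T cells, had log2 changes of -0.31 (adjusted p = 0.470) in polysomal and -0.16 (adjusted p = 0.760) in sub-polysomal RNA, and was also named after its values were seen.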
